A study of Arabidopsis thaliana with 24 samples.

Results

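Seedlings of the Arabidopsis thaliana double mutant atmyc2 cop1-6 were compared with seedlings of the single mutant atmyc2, both grown in blue light with abscisic acid (ABA). The comparison was made of 4 arrays of the 24 in the series, 2 from each line, chosen by the line and growth condition in the sample labels. All 4 arrays carried the atmyc2 mutation, so that the lines differed by cop1-6 in a background without AtMYC2. Plants were of the Columbia ecotype and were whole seedlings, 10 days old, on MS plates at 22 ± 1 °C under constant blue light of 35 µmol per second per square metre, with ABA at 0.5 (unit written um in the labels). RNA from each sample, 5 µg in total, was hybridised as biotin-labelled cRNA. The other groups compared here, of 2 arrays each, were cop1-6 and wild type (WT) in blue light with ABA, and the double mutant and atmyc2 in blue light without ABA. The rest of the 12 groups entered only the filter on low signals and the estimate of spread. They were WT and cop1-6 in blue light without ABA, and WT, atmyc2, cop1-6 and the double mutant in darkness. Labels called the 2 samples of a group biological replicates and did not say whether they came from separate cultures. The p-values therefore measure only the spread between such samples, pooled over all 12 groups (24 arrays) rather than taken from the compared arrays alone.

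COP1 is a RING-finger E3 ubiquitin ligase that targets light-signalling transcription factors such as HY5 for degradation and so represses seedling photomorphogenesis. The cop1-6 allele is a partial loss of function that leaves the plants viable. AtMYC2, a transcription factor of the basic helix-loop-helix class, acts in jasmonate, ABA and blue-light responses. ABA slows germination and seedling growth and induces genes for protective late-embryogenesis-abundant (LEA) proteins. In light-grown seedlings, HY5 and its partners are known to activate genes of flavonoid and anthocyanin synthesis.

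The 2 double-mutant arrays had a Pearson correlation of 0.971 across 22746 probe sets on the log2 scale, and the 2 atmyc2 arrays one of 0.978. Between the lines, correlations ran from 0.950 to 0.959. The cop1-6 pair with ABA, which also enters the estimate of spread, correlated at only 0.945. Its replicate 1 was nearer to the double-mutant arrays (0.969 with each) than to its own replicate. Neither mutation was checked by its own gene, since no probe set carries the name MYC2 or COP1 in the annotation used, which leaves many probe sets unnamed. Photosynthesis genes were bright on all 4 arrays, as for RCA, the Rubisco activase gene, with signals of 2771 and 2664 on the double-mutant arrays and 2554 and 2779 on the atmyc2 arrays. The root gene PYK10, a beta-glucosidase of the endoplasmic reticulum, was bright as well, with 3266 and 3364 on the double-mutant arrays and 3165 and 3016 on the atmyc2 arrays.

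Of 16196 probe sets tested, 157 were higher in the double mutant than in atmyc2 and 610 were lower (adjusted p under 0.05, limma, Benjamini-Hochberg over all probe sets tested). These were 0.969% and 3.77% of the probe sets tested, or 4.74% in all. The 16196 were the probe sets of 22746 whose mean signal passed 19.1, the 40th percentile of all values, in at least 1 of 12 groups. Without that filter the calls were 132 higher and 535 lower. The median log2 fold change over all probe sets tested was -0.08. At least a doubling was measured for 78 of the higher probe sets, and a halving or more for 413 of the lower ones. In 244 of the lower probe sets the mean signal in the double mutant was under 19.1, where the size of a fold change depends on the pseudocount of 1 that was added before taking logs. A fold change with 19.1 as the pseudocount is given beside most such genes below. On all 767 probe sets the double-mutant and atmyc2 arrays did not overlap, which was also the case for 65% of all probe sets tested (26.6% higher and 38.4% lower in the double mutant).

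The number of calls depended on each of the 4 arrays. Leaving out atmyc2 replicate 1 left 104 calls, 13 higher and 91 lower. Without atmyc2 replicate 2 there were 304, without double-mutant replicate 1 there were 346 and without double-mutant replicate 2 there were 207. A total of 98 probe sets, 11 higher and 87 lower, were called in all 4 of these fits. The share of higher calls was 20.5%, but 33.8% with the pseudocount of 19.1 (263 higher, 514 lower). With the spread taken from the 4 arrays alone, 1646 were higher and 2368 lower. A fit without the 2 cop1-6 arrays with ABA, added after the data were seen, gave 322 higher and 1033 lower and kept all 767 calls.

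**Figure D1:**
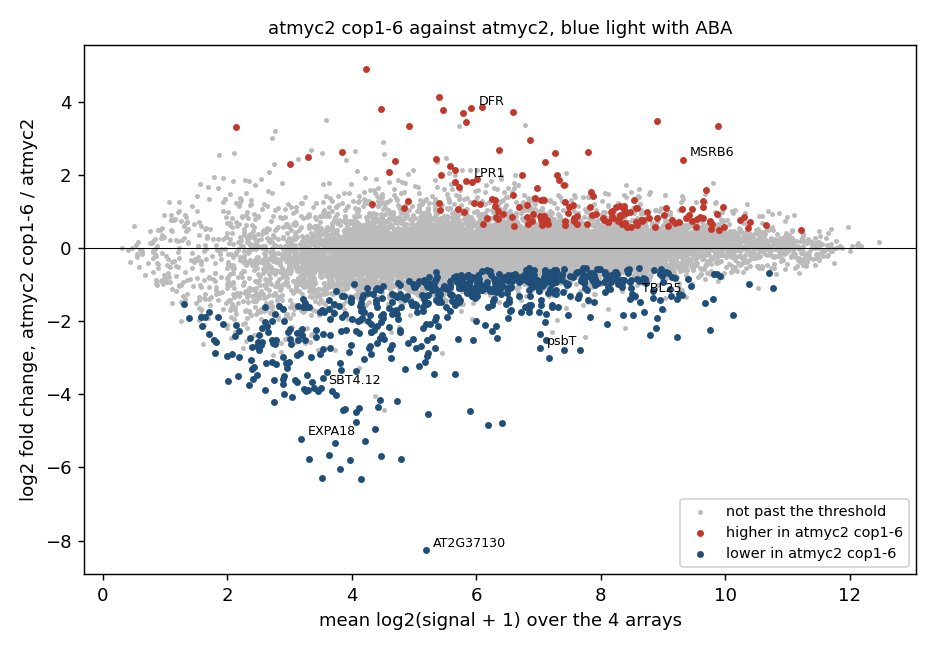
Log2 fold change of the double mutant over atmyc2 with ABA (vertical axis) against the mean log2(signal + 1) over the 4 arrays (horizontal axis) for 16196 probe sets. Red points mark the 157 higher and blue points the 610 lower probe sets, of which 244 had a mean signal under 19.1 in the double mutant.

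Genes of flavonoid and anthocyanin synthesis were higher in the double mutant. Of 26 genes in the list of this pathway, 8 had a probe set of their own, 7 passed the filter on low signals and 6 were higher in the double mutant, beside 0.969% of all probe sets tested. Their median log2 fold change was 2.63, against -0.08 over all probe sets tested. Leaving the cop1-6 arrays with ABA out of the fit called all 7, beside 322 higher of 16161 probe sets tested. Setting no pseudocount, with signals under 1 raised to 1, called 4, beside 146 higher of 16196. None of the 7 was called without atmyc2 replicate 1, and 2 were called without any other 1 of the 4 arrays. The summed signal of the 7 genes was 1253 and 1171 on the double-mutant arrays, against 267 and 264 on the atmyc2 arrays.

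DFR encodes dihydroflavonol 4-reductase, the enzyme that leads from dihydroflavonols to the leucoanthocyanidins. Its signals were 229.8 and 226 on the double-mutant arrays, against 13.4 and 16.8 on the atmyc2 arrays. The arrays of each line lay close together and the lines were far apart, with a log2 fold change of 3.84 ± 0.65 (SE, adjusted p = 0.0024). UF3GT, a glycosyltransferase that decorates anthocyanins, measured 175 and 154 in the double mutant and 9.8 and 12.2 in atmyc2 (log2 fold change 3.79 ± 0.72, adjusted p = 0.0047). In both genes the atmyc2 signals were under 19.1, and a pseudocount of 19.1 gave log2 fold changes of 2.85 for DFR and 2.61 for UF3GT. Leaving out 1 array ended the call of DFR without atmyc2 replicate 1 (adjusted p = 0.053), and that of UF3GT without atmyc2 replicate 1 (adjusted p = 0.089).

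The other members had higher signals on both double-mutant arrays as well. CHIL, a chalcone isomerase-like protein that aids the first steps of the pathway, had signals of 101.2 and 106 in the double mutant and 21 and 21.1 in atmyc2 (log2 fold change 2.25 ± 0.57, adjusted p = 0.03). For AT5MAT, which malonylates the 5-glucoside of anthocyanins, the signals were 32 and 37.5 in the double mutant and 3.2 and 6.9 in atmyc2 (log2 fold change 2.63 ± 0.70, adjusted p = 0.038, or 1.16 with the pseudocount of 19.1). UGT78D2, the flavonoid 3-O-glucosyltransferase, showed the smallest rise of the group, with 278 and 260.2 in the double mutant and 116 and 104 in atmyc2 (log2 fold change 1.28 ± 0.29, adjusted p = 0.014). The list member AT4G14090, which has no symbol in the annotation used, measured 96.8 and 95.8 in the double mutant and 7.6 and 9.5 in atmyc2 (log2 fold change 3.36 ± 0.71, adjusted p = 0.0095, or 2.06 with 19.1). Each of these 4 genes missed the threshold when any 1 of the 4 arrays was left out, with adjusted p-values of 0.13 to 0.23 for CHIL, 0.087 to 0.38 for AT5MAT, 0.091 to 0.12 for UGT78D2 and 0.056 to 0.14 for AT4G14090. UGT78D1, the flavonol 3-O-rhamnosyltransferase, was the member that was not called: 340.5 and 291 in the double mutant and 96 and 92.7 in atmyc2, with adjusted p = 0.096. HYH, the HY5 homologue, was not called either, with 158 and 152 in the double mutant and 92.6 and 85.1 in atmyc2 (adjusted p = 0.28).

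Outside the flavonoid list, the higher genes with a symbol and the largest fold changes at a pseudocount of 19.1 were MSRB6, UGT76E12 and LPR1. MSRB6 encodes a methionine sulfoxide reductase, which repairs oxidised methionine. It had signals of 1429.9 and 1536 on the double-mutant arrays, against 261 and 287 on the atmyc2 arrays, and a log2 fold change of 2.43 ± 0.26 (adjusted p = 3.9e-05). Its call, like those of LPR1 and PDF1A, held with any 1 of the 4 arrays left out (adjusted p 7.1e-04 to 0.0025). LPR1, a multicopper oxidase that takes part in the root response to low phosphate, measured 104 and 112 in the double mutant and 28 and 30.4 in atmyc2 (log2 fold change 1.86 ± 0.31, adjusted p = 0.0015). PDF1A, a peptide deformylase that acts on new proteins of the organelles, measured 477 and 470.2 in the double mutant and 242 and 245 in atmyc2 (log2 fold change 0.96 ± 0.16, adjusted p = 0.0017). These 3 genes were among 9 of the 57 called genes with a symbol whose calls held in every such fit.

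UGT76E12, a UDP-glycosyltransferase, had signals of 318 and 459 in the double mutant and 48.6 and 77.1 in atmyc2 (log2 fold change 2.62 ± 0.66, adjusted p = 0.028). ChiC, a chitinase, had 288 and 278 in the double mutant and 125 and 125 in atmyc2 (log2 fold change 1.18 ± 0.33, adjusted p = 0.043). ALDH2C4 oxidises the hydroxycinnamaldehydes of phenylpropanoid metabolism, and measured 444 and 425 in the double mutant and 229 and 229.7 in atmyc2 (log2 fold change 0.92 ± 0.24, adjusted p = 0.033). In all 3 genes both double-mutant arrays lay above both atmyc2 arrays. The same held for every probe set called higher and for 26.6% of all probe sets tested. All 3 lost their calls with any 1 of the 4 arrays left out, at adjusted p-values of 0.087 to 0.31 for UGT76E12, 0.17 to 0.28 for ChiC and 0.15 to 0.24 for ALDH2C4. GTR1, a transporter of glucosinolates, behaved in the same way, with 519 and 535 in the double mutant and 312 and 300.4 in atmyc2 (log2 fold change 0.78 ± 0.21, adjusted p = 0.038, and 0.14 to 0.24 with 1 array left out).

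Among the higher genes were 3 nuclear genes for mitochondrial respiration, each with a log2 fold change under 1. They were 2 of 3 tested genes with an SDH symbol and 1 of 2 with a CYTC symbol. Over all probe sets tested, 0.969% were higher. The other members, SDH2-2 (log2 fold change 0.50) and CYTC-1 (0.38), were not called. SDH1-1 and SDH2-1 encode the flavoprotein and iron-sulfur subunits of succinate dehydrogenase, complex II. SDH1-1 had signals of 574 and 502 in the double mutant and 299 and 322 in atmyc2 (log2 fold change 0.79 ± 0.20, adjusted p = 0.026). SDH2-1 had 665 and 755 in the double mutant and 377 and 375 in atmyc2 (log2 fold change 0.91 ± 0.25, adjusted p = 0.041). CYTC-2, a cytochrome c, measured 745 and 836 in the double mutant and 459 and 502 in atmyc2 (log2 fold change 0.72 ± 0.19, adjusted p = 0.04). None of the 3 calls held with any 1 array left out, the adjusted p-values being 0.096 to 0.26 for SDH1-1, 0.11 to 0.28 for SDH2-1 and 0.11 to 0.34 for CYTC-2. GR1, a glutathione reductase, had 845 and 908 in the double mutant and 462 and 529.6 in atmyc2 (log2 fold change 0.82 ± 0.18, adjusted p = 0.012). Its call ended without atmyc2 replicate 1 (adjusted p = 0.2), double-mutant replicate 1 (adjusted p = 0.056) or double-mutant replicate 2 (adjusted p = 0.13). The metallothionein gene MT1C was higher as well (1498 and 2039.5 in the double mutant, 1094 and 1011 in atmyc2, adjusted p = 0.038), though not without atmyc2 replicate 1 (adjusted p = 0.21), atmyc2 replicate 2 (adjusted p = 0.2) or double-mutant replicate 2 (adjusted p = 0.4). TBL37, the last of the 18 higher genes with a symbol and a member of the TRICHOME BIREFRINGENCE-LIKE family, had 683 and 795 in the double mutant and 443 and 419.8 in atmyc2 (adjusted p = 0.015). Its call ended without atmyc2 replicate 1 (adjusted p = 0.13), atmyc2 replicate 2 (adjusted p = 0.11) or double-mutant replicate 2 (adjusted p = 0.18).

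At the pseudocount of 19.1, the highest fold changes among called probe sets with a single gene, whatever the symbol, were those of DFR and of AT2G43590. AT2G43590, without a symbol here, measured 179.7 and 219 in the double mutant and 12.9 and 16 in atmyc2 (log2 fold change 3.70 ± 0.72, adjusted p = 0.0075). Its call ended without atmyc2 replicate 1 (adjusted p = 0.12) or double-mutant replicate 2 (adjusted p = 0.077).

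**Figure D2:**
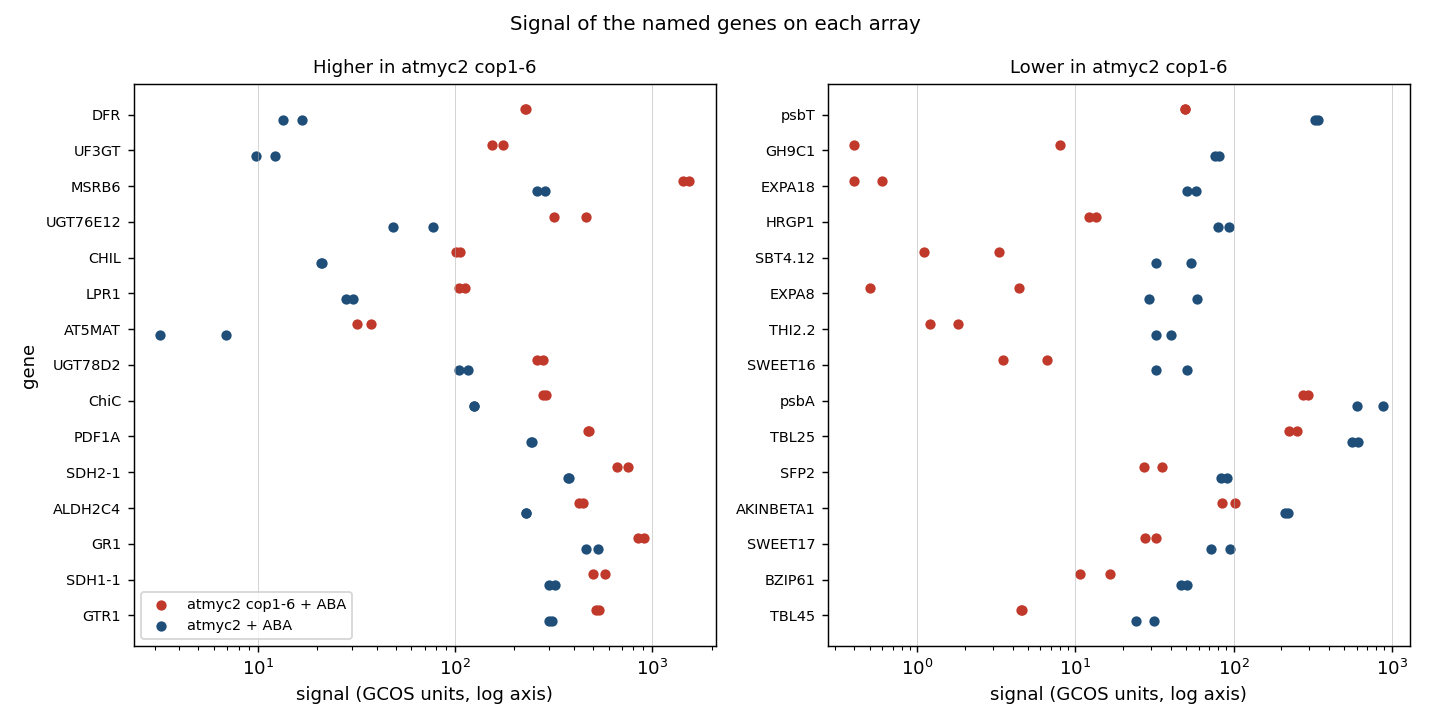
Signal on each array (horizontal log axis) for the 15 higher and the 15 lower named genes with the largest fold changes, with the double mutant in red and atmyc2 in blue. Each point is 1 array. The lines do not overlap for any of these genes, which was a condition for choosing them. On the lower side the double-mutant signals of EXPA18, THI2.2 and SBT4.12 lie between 0.4 and 3.3.

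The lowest of all genes with 1 locus was AT2G37130, which has no symbol here: 0.5 and 1.9 on the double-mutant arrays, against 734 and 558 on the atmyc2 arrays. Its log2 fold change was -8.26 ± 0.96 (SE, adjusted p = 2.5e-04), or -5.02 with the pseudocount of 19.1, and the call held with any 1 array left out. AT5G17820, likewise without a symbol, followed with 1.2 and 0.8 in the double mutant and 177 and 139 in atmyc2 (log2 fold change -6.31 ± 1.18, or -3.13 with 19.1, adjusted p = 0.0068). That call ended without atmyc2 replicate 1 (adjusted p = 0.11) or double-mutant replicate 2 (adjusted p = 0.068).

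Expansins loosen cell walls during growth, and EXPA7 and EXPA18 are known from root hairs. EXPA18 fell to 0.4 and 0.6 in the double mutant, against 58 and 50.9 in atmyc2 (log2 fold change -5.21 ± 0.90, or -1.91 with 19.1, adjusted p = 0.0031). The call ended without atmyc2 replicate 1 (adjusted p = 0.058). EXPA7 measured 3.9 and 5.4 in the double mutant and 61.3 and 46 in atmyc2 and did not pass the threshold (adjusted p = 0.067). EXPA8 had 4.4 and 0.5 in the double mutant and 58.6 and 29.3 in atmyc2 (log2 fold change -3.90 ± 0.61, or -1.51 with 19.1, adjusted p = 0.0015). Of 14 tested genes with an expansin or expansin-like symbol, EXPA18 and EXPA8 were lower and none was higher, beside 3.77% lower over all probe sets tested. The list of expansins and xyloglucan-modifying enzymes, which leaves out EXPA7 and EXPA18, had 9 tested members and a median of -0.39. EXPA8 was the only 1 of the 9 that was called. The call held with any 1 array left out (adjusted p 8.9e-04 to 0.0495).

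Of 22 root markers, 3 had a probe set of their own: EXPA7, EXPA18 and PYK10. PYK10, given above, had a log2 fold change of 0.10 (adjusted p = 0.76), while EXPA18 was lower. The sum over the 3 markers was 3269.9 and 3369.6 on the double-mutant arrays and 3284 and 3112.5 on the atmyc2 arrays, nearly all of it from PYK10, so that it does not register EXPA7 or EXPA18. In these whole-seedling samples fewer cells of a type and less RNA per cell cannot be told apart.

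Glycosyl hydrolase family 9 endoglucanases act on cellulose and related glucans. Of 7 tested genes with a GH9 symbol, a grouping made after the values were seen, 4 were lower and none higher, with a median of -0.84, beside 3.77% lower and a median of -0.08 over all probe sets tested. GH9C1 had 8 and 0.4 in the double mutant and 76.7 and 81.2 in atmyc2 (log2 fold change -4.49 ± 1.06, or -2.09 with 19.1, adjusted p = 0.023). GH9B7 measured 202 and 159 in the double mutant and 331 and 309 in atmyc2 (log2 fold change -0.83 ± 0.18, adjusted p = 0.014). The call of GH9C1 ended without atmyc2 replicate 1 (adjusted p = 0.18), atmyc2 replicate 2 (adjusted p = 0.12) or double-mutant replicate 2 (adjusted p = 0.28), and that of GH9B7 without atmyc2 replicate 1 (adjusted p = 0.18), atmyc2 replicate 2 (adjusted p = 0.068) or double-mutant replicate 2 (adjusted p = 0.21). GH9B13 (7.5 and 6.9 in the double mutant, 32.1 and 28.6 in atmyc2, adjusted p = 0.0028) lost its call only without atmyc2 replicate 1 (adjusted p = 0.061). GH9B8 (0.4 and 0.9 in the double mutant, 12.6 and 11.1 in atmyc2, adjusted p = 0.035) lost its call with any 1 array left out (adjusted p 0.14 to 0.27).

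TBL25, of the family of wall polysaccharide acetylation proteins, had signals of 253 and 224 in the double mutant and 611 and 564 in atmyc2 (log2 fold change -1.30 ± 0.19, adjusted p = 5.2e-04). TBL45 of the same family had 4.5 and 4.6 in the double mutant and 31.2 and 24.3 in atmyc2 (log2 fold change -2.36 ± 0.37, or -0.98 with 19.1, adjusted p = 0.0011). Both calls held with any 1 array left out. Among 16 tested TBL genes, 2 were thus lower and 1, TBL37, higher, beside 3.77% lower and 0.969% higher over all probe sets tested.

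HRGP1, a hydroxyproline-rich wall glycoprotein, measured 12.1 and 13.5 in the double mutant and 94 and 79.2 in atmyc2 (log2 fold change -2.66 ± 0.70, or -1.73 with 19.1, adjusted p = 0.04). It missed the threshold with any 1 array left out (adjusted p 0.14 to 0.3). SBT4.12, a subtilisin-like protease, had 3.3 and 1.1 in the double mutant and 53.9 and 32.1 in atmyc2 (log2 fold change -3.83 ± 0.41, or -1.52 with 19.1, adjusted p = 5.5e-05). THI2.2, a thionin, an antimicrobial peptide, had 1.8 and 1.2 in the double mutant and 40.2 and 32.5 in atmyc2 (log2 fold change -3.90 ± 0.39, or -1.43 with 19.1, adjusted p = 2.6e-05). SBT4.12 and THI2.2 kept their calls with any 1 array left out, at adjusted p-values of 1.7e-04 to 0.0038 for SBT4.12 and 3.4e-04 to 0.0022 for THI2.2.

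SWEET proteins carry sugars across membranes down their gradient, and SWEET16 and SWEET17 are known from the vacuolar membrane. Of 6 tested members of the list these 2 were lower and none was higher, with a median log2 fold change of -0.65, beside 3.77% lower and 0.969% higher over all probe sets tested. In a wider group of 10 tested genes chosen by symbol, they were again the only 2 called, and the median was -0.49. SWEET16 had 3.5 and 6.6 in the double mutant and 50.8 and 32.3 in atmyc2 (log2 fold change -2.83 ± 0.39, or -1.31 with 19.1, adjusted p = 3.9e-04), and kept its call with any 1 array left out. SWEET17 had 32.3 and 27.6 in the double mutant and 95.6 and 71.9 in atmyc2 (log2 fold change -1.44 ± 0.37, adjusted p = 0.032), and lost its call with any 1 array left out (adjusted p 0.083 to 0.33). SWEET1 lay on the other side with 161 and 192 in the double mutant and 68.3 and 76 in atmyc2, without passing the threshold (adjusted p = 0.1). SFP2, a sugar transporter of the monosaccharide family, measured 35.3 and 27.1 in the double mutant and 91 and 82.9 in atmyc2 (log2 fold change -1.46 ± 0.31, adjusted p = 0.011). Its call ended without atmyc2 replicate 1 (adjusted p = 0.15), atmyc2 replicate 2 (adjusted p = 0.06) or double-mutant replicate 2 (adjusted p = 0.14).

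AKINBETA1, a beta subunit of the SnRK1 energy-sensing kinase, had 102 and 84 in the double mutant and 221 and 210.4 in atmyc2 (log2 fold change -1.21 ± 0.30, adjusted p = 0.027). The bZIP transcription factor BZIP61 measured 16.5 and 10.7 in the double mutant and 51 and 46.3 in atmyc2 (log2 fold change -1.79 ± 0.34, or -1.06 with 19.1, adjusted p = 0.0046). Leaving out any 1 array ended the call of AKINBETA1 (adjusted p 0.079 to 0.23), while that of BZIP61 ended without atmyc2 replicate 1 (adjusted p = 0.088) or double-mutant replicate 2 (adjusted p = 0.092). A second family member, bZIP44, fell to 54 and 49.3 in the double mutant, against 121 and 119 in atmyc2 (adjusted p = 0.038, and 0.13 to 0.27 with 1 array left out), and these were the 2 lower genes among 10 tested with a BZIP symbol. Over all probe sets tested, 3.77% were lower. SPCH, which starts the stomatal lineage, was called lower (log2 fold change -2.08, or -0.40 with 19.1, adjusted p = 0.01). Its signals, 0.9 and 0.8 in the double mutant and 10.5 and 4.3 in atmyc2, were all under 19.1. Its call ended without atmyc2 replicate 1 (adjusted p = 0.26), double-mutant replicate 1 (adjusted p = 0.052) or double-mutant replicate 2 (adjusted p = 0.084). FMA, a later factor of the same lineage, measured 20.1 and 14.5 in the double mutant and 15.5 and 20 in atmyc2 (adjusted p = 0.97). The 2 stomatal markers tested, of 11, summed to 21 and 15.3 on the double-mutant arrays and 26 and 24.3 on the atmyc2 arrays.

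Apart from psbT, psbA and LHCB4.2, described with the photosynthesis genes, the other 18 lower genes with a symbol had log2 fold changes between -2.67 (ATC) and -0.56 (YKT61). The family counts below stand beside 3.77% lower over all probe sets tested. TUB6, a beta-tubulin, measured 237 and 241 in the double mutant and 427 and 361 in atmyc2 (log2 fold change -0.72 ± 0.14, adjusted p = 0.0048). It was 1 of 5 tested TUB genes, of which no other was called, and its call ended without atmyc2 replicate 1 (adjusted p = 0.15). CSLA03, of the cellulose-synthase-like A family of mannan synthases, had 11.4 and 14.3 in the double mutant and 53.7 and 32.7 in atmyc2 (log2 fold change -1.64 ± 0.42, or -0.94 with 19.1, adjusted p = 0.03). UGT76C2, which glucosylates cytokinins, had 22.2 and 23.1 in the double mutant and 52.5 and 39.9 in atmyc2 (log2 fold change -0.98 ± 0.26, or -0.64 with 19.1, adjusted p = 0.038). On both genes the atmyc2 arrays lay further apart from each other than the double-mutant arrays did. The lines did not overlap, as on every called probe set. SEC10, a subunit of the exocyst that tethers secretory vesicles, had 97.6 and 82.6 in the double mutant and 134 and 139 in atmyc2 (log2 fold change -0.60 ± 0.15, adjusted p = 0.026). YKT61, a SNARE of membrane fusion, had 299.5 and 279.6 in the double mutant and 435 and 421 in atmyc2 (log2 fold change -0.56 ± 0.15, adjusted p = 0.033). BIM1, a helix-loop-helix factor of brassinosteroid signalling, had 128 and 93.5 in the double mutant and 193 and 184 in atmyc2 (log2 fold change -0.78 ± 0.18, adjusted p = 0.019). With any 1 array left out CSLA03 (adjusted p 0.054 to 0.37), UGT76C2 (0.078 to 0.4) and YKT61 (0.1 to 0.28) missed the threshold. The call of SEC10 ended without atmyc2 replicate 1 (adjusted p = 0.19), atmyc2 replicate 2 (adjusted p = 0.15) or double-mutant replicate 2 (adjusted p = 0.28), and that of BIM1 without atmyc2 replicate 1 (adjusted p = 0.21), atmyc2 replicate 2 (adjusted p = 0.092) or double-mutant replicate 2 (adjusted p = 0.28). The serine carboxypeptidase-like genes scpl25 (257 and 212 in the double mutant, 468 and 433 in atmyc2) and SCPL34 (109.8 and 116 in the double mutant, 214 and 211 in atmyc2) were the 2 lower genes of 17 tested with such a symbol. Both lost their calls with any 1 array left out (adjusted p 0.08 to 0.29 and 0.059 to 0.12).

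Photosynthesis genes of the nucleus were mostly near 0. In the lists of photosystem and electron transport genes (5 tested), Calvin cycle (3), photorespiration (3) and chlorophyll synthesis (7) no gene was called, and the medians were -0.20, 0.03, -0.32 and 0.11. Among 3 tested antenna genes, only LHCB4.2, which encodes an antenna protein of photosystem II, was lower, beside 3.77% of all probe sets tested. It had 973 and 941 in the double mutant and 2051 and 1731 in atmyc2 (log2 fold change -0.98 ± 0.21, adjusted p = 0.0095). The call ended without atmyc2 replicate 1 (adjusted p = 0.18), double-mutant replicate 1 (adjusted p = 0.056) or double-mutant replicate 2 (adjusted p = 0.093). Its paralogues did not follow: LHCB4.1 had 2299 and 2263 in the double mutant and 2445 and 2584 in atmyc2 (adjusted p = 0.73). LHCB4.3 had 195 and 188 in the double mutant and 114 and 129 in atmyc2 (adjusted p = 0.056). PORB, a light-dependent protochlorophyllide oxidoreductase, measured 436 and 359 in the double mutant and 666 and 577 in atmyc2 and did not pass the threshold (adjusted p = 0.056).

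Of 67 plastid-encoded genes tested, 2 were lower (2.99%, beside 3.77% of all probe sets tested) and none higher. Their median was -0.17, beside -0.08 over all probe sets, and 52 of the 67 had negative fold changes, beside 9391 of all 16196 tested. With the spread of the 4 arrays alone, 27 were lower and 2 higher, beside 2368 lower and 1646 higher of all 16196 tested. psbT, a small subunit of photosystem II, had 49.5 and 49.3 in the double mutant and 328 and 342 in atmyc2 (log2 fold change -2.74 ± 0.62, adjusted p = 0.019). psbA, the D1 protein of the photosystem II reaction centre, had 274 and 297 in the double mutant and 884 and 604 in atmyc2 (log2 fold change -1.35 ± 0.34, adjusted p = 0.027). Both lost their calls with any 1 array left out, at adjusted p-values of 0.092 to 0.16 for psbT and 0.052 to 0.34 for psbA. psbB, which is transcribed together with psbT, measured 148 and 165 in the double mutant and 595 and 869.6 in atmyc2 without passing the threshold (adjusted p = 0.16). The summed signal of the 67 genes was 78922 and 78302 on the double-mutant arrays, against 89240 and 85398 on the atmyc2 arrays.

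All 19 probe sets with symbols of mitochondrially encoded genes, a list formed from the annotation, had negative fold changes with a median of -0.97, and none passed the threshold. Some genes, such as nad1 and nad5, had more than 1 of these probe sets. Over all 16196 probe sets tested, 9391 had negative fold changes. On 18 of the 19 the lines did not overlap, beside 65% of all probe sets tested. The count rested on the estimate of spread, since 12 were called lower in the fit without the cop1-6 arrays with ABA and 17 with the spread of the 4 arrays alone. Over all probe sets tested, these 2 fits called 1033 of 16161 and 2368 of 16196 lower. nad4L, a subunit of respiratory complex I, had the largest of these fold changes, with 77.3 and 81.3 in the double mutant and 309.6 and 314 in atmyc2 (log2 fold change -1.96 ± 0.58, adjusted p = 0.066). Their summed signal was 2407 and 2022 on the double-mutant arrays, against 3886 and 4298 on the atmyc2 arrays. The 25S ribosomal RNA control, a transcript without a poly(A) tail, was lower in the same direction, with 1601 and 1434 on the double-mutant arrays and 1970.1 and 2561 on the atmyc2 arrays. Its part in the values of the organelle genes was not tested.

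Of the 29 genes in the list of ABA, cold and LEA genes 7 were tested, and none was called. Of these 7, 6 had positive fold changes, beside 6803 of all 16196 probe sets tested, and the median was 0.86. COR15A, which encodes a chloroplast stromal protein induced by cold and ABA, measured 1534 and 1782 in the double mutant and 417 and 556 in atmyc2 (log2 fold change 1.78 ± 0.66, adjusted p = 0.14). LEA4-5, a LEA protein, had 1125 and 1432 in the double mutant and 479 and 576 in atmyc2 (log2 fold change 1.27 ± 1.19, adjusted p = 0.63). On all 7 genes the arrays of the lines did not overlap, beside 65% of all probe sets tested, and the SE, which draws on the replicates of all 12 groups, was 1.19 for LEA4-5. With the spread of the 4 arrays alone, 5 of the 7 were higher and COR47 was lower, beside 1646 higher and 2368 lower of all 16196. With the pseudocount of 19.1 COR15A and COR15B were called higher, beside 263 of all 16196. Genes of seed reserves were not called either: PAP85, a vicilin-like storage protein, measured 1266 and 1312 in the double mutant and 702 and 859.5 in atmyc2 (adjusted p = 0.66), and OLEO3, an oleosin of oil bodies, 146 and 127 in the double mutant and 77.6 and 102 in atmyc2 (adjusted p = 0.73).

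No member of the hormone lists passed the threshold. The 4 tested auxin-response genes had a median of -0.72, with WES1, an amido synthetase that conjugates auxin, at 75.1 and 83.1 in the double mutant and 179 and 171 in atmyc2 (adjusted p = 0.077). The 4 gibberellin genes, which include the receptors GID1A, GID1B and GID1C, had a median of -0.13. For jasmonate, MYC3 and MYC4, the closest relatives of AtMYC2, had signals of 59.4 and 72 for MYC3 and 64.9 and 57.5 for MYC4 in the double mutant. In atmyc2 they had 95.5 and 73 for MYC3 and 84.2 and 62 for MYC4 (adjusted p = 0.48 and 0.78). Defensin genes were not called: PDF1.2, a jasmonate and ethylene marker, measured 14.4 and 11.6 in the double mutant and 4.8 and 5.1 in atmyc2 (adjusted p = 0.35). The single tested marker of dividing cells, PRL, measured 95.4 and 80.3 in the double mutant and 78.6 and 76.8 in atmyc2 (adjusted p = 0.72). Of 601 genes in 34 lists, 97 had a probe set of their own in the annotation and 89 were tested. In 6 of the lists, among them those of ABA synthesis and of ABA perception and signalling, no gene was tested.

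**Figure D3:**
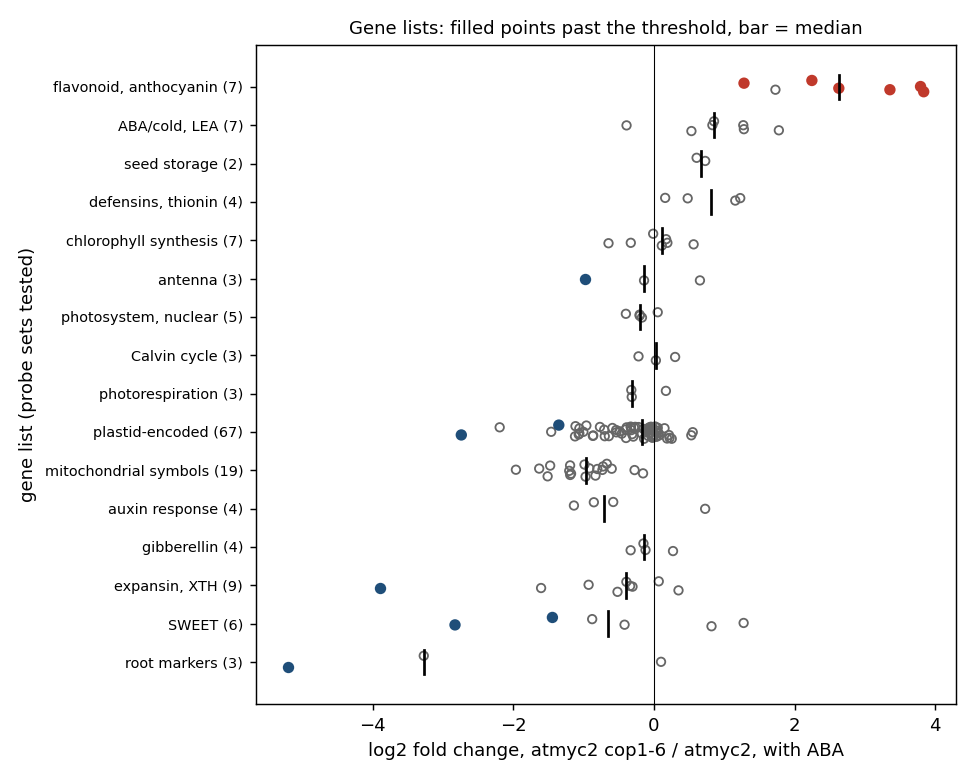
Log2 fold change of the double mutant over atmyc2 with ABA (horizontal axis) for each tested member of 16 gene lists, with the number tested in brackets. Filled points passed the threshold (red higher, blue lower), open points did not, and the bar is the list's median. The 6 filled flavonoid points lie between 1.28 and 3.84, and no member of the ABA and LEA list is filled.

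The same allele was also measured in plants with AtMYC2, by setting cop1-6 against WT in blue light with ABA on 4 other arrays. That comparison called 213 probe sets higher (1.32%) and 572 lower (3.53%). All 157 probe sets higher in the double mutant were also above 0 there, and 76 of them were called higher, which is 48.4% of the 157 and 35.7% of the 213. Of the 610 lower probe sets, 591 were below 0 there and 255 were called lower, which is 41.8% of the 610 and 44.6% of the 572. None was called in the opposite direction. Across all probe sets tested, 49.2% were above 0 in cop1-6 against WT.

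In the flavonoid list, DFR measured 352 and 180.1 in cop1-6 and 18.2 and 19.8 in WT (log2 fold change 3.66, adjusted p = 0.0031). UF3GT measured 246 and 112 in cop1-6 and 9.4 and 11.4 in WT (log2 fold change 3.88, adjusted p = 0.0037). The list's median was 2.48 in cop1-6 against WT, beside 2.63 in the double mutant against atmyc2. The summed signal of its 7 genes was 1528 and 684 in cop1-6, which lay further apart than in the double mutant, and 333 and 314 in WT. EXPA8, lower in both, had 1.2 and 3.7 in cop1-6 and 39.7 and 54.7 in WT (log2 fold change -3.89, adjusted p = 0.0014).

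The cop1-6 replicates lay far apart on some of the genes named above. EXPA18 measured 1.4 and 42.7 in cop1-6, replicate 1 lying near the double mutant and replicate 2 within the range of WT, which had 39.7 and 62.6 (adjusted p = 0.17). AT2G37130 was split in a like way, with 13.7 and 432 in cop1-6 and 603 and 814 in WT (adjusted p = 0.082). SBT4.12 was lower on both cop1-6 arrays, with 9 and 28.7 in cop1-6 and 50 and 66.3 in WT (log2 fold change -1.77, adjusted p = 0.017).

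The difference between these effects was tested directly, as the fold change of the double mutant over atmyc2 minus that of cop1-6 over WT. No probe set passed the threshold in limma (0%), and 658 of 16196 (4.06%) had an unadjusted p under 0.05. Leaving out cop1-6 replicate 1 gave 143 above 0 and 197 below. Without double-mutant replicate 1, and again without double-mutant replicate 2, 1 probe set was called, and without any of the other 5 arrays none was. For MSRB6 the difference was 1.29 ± 0.36 (SE, adjusted p = 0.84), for SBT4.12 -2.06 ± 0.58 (adjusted p = 0.84) and for DFR 0.18 ± 0.93 (adjusted p = 1). These values do not show that the effects were alike, since the standard errors leave room for differences of a doubling or more.

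**Figure D4:**
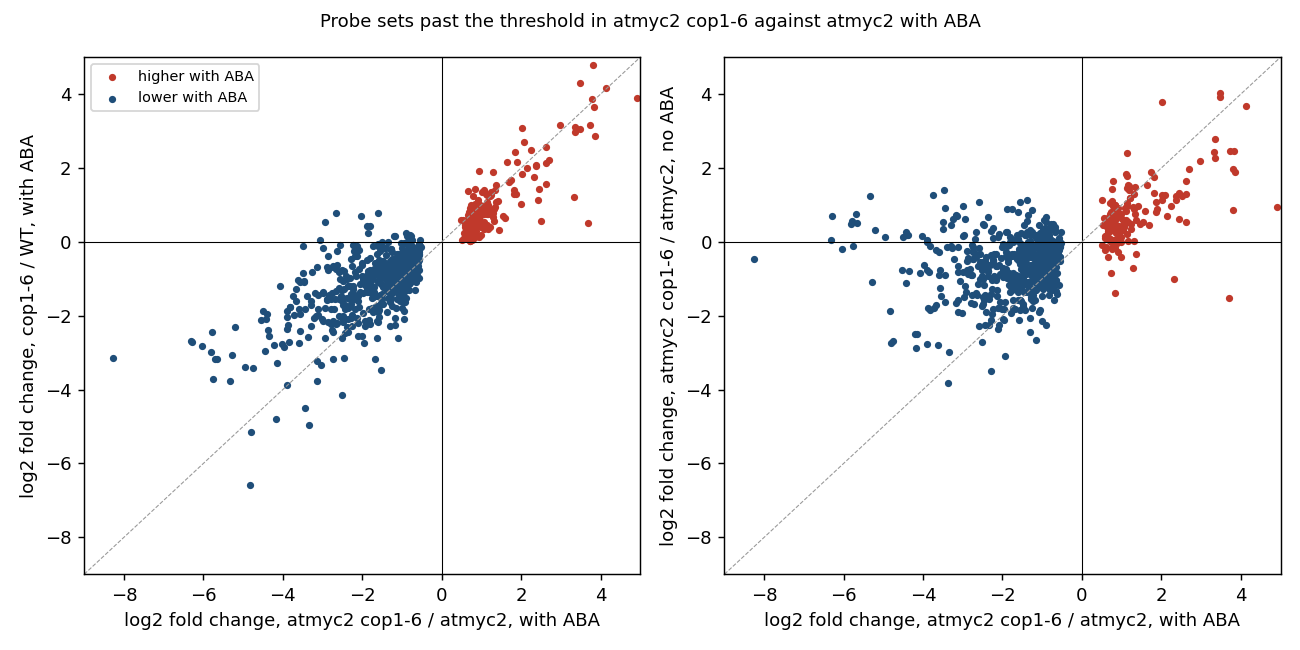
Log2 fold changes of the 767 called probe sets with ABA (horizontal axes) against cop1-6 over WT with ABA (left) and the double mutant over atmyc2 without ABA (right). Red points were higher and blue points lower in the double mutant with ABA, and the dashed line marks equal values. In the left panel all 157 red points lie above 0.

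Without ABA, the double mutant against atmyc2 gave 669 higher (4.13%) and 894 lower probe sets (5.52%), 9.65% in all. Of the 157 probe sets higher with ABA, 136 were above 0 without it and 56 were called higher (35.7% of the 157 and 8.37% of the 669). Of the 610 lower ones, 501 were below 0 and 181 were called lower (29.7% of the 610 and 20.2% of the 894). Across all probe sets tested, 48.4% were above 0 without ABA. Another 3 were called in the opposite direction, 2 of the higher and 1 of the lower ones. DFR was higher without ABA too, with 83.8 and 23.6 in the double mutant and 8.2 and 6.6 in atmyc2 (log2 fold change 2.45, adjusted p = 0.024). SDH1-1, SDH2-1, CYTC-2 and GR1 were each called higher without ABA as well, with log2 fold changes of 0.69, 0.91, 1.04 and 1.01. MT1C was not called without ABA, with 1718 and 2201 in the double mutant and 2219 and 1727 in atmyc2 (adjusted p = 0.99).

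The effect of cop1-6 in plants without AtMYC2 differed between growth with and without ABA at 115 probe sets, 44 above 0 (0.272%) and 71 below (0.438%). The difference is the fold change with ABA minus that without. Arrays with and without ABA also differed in a control: the 25S ribosomal RNA signal was 1434 to 2561 on the 4 arrays with ABA and 34.1 to 87.8 on the 4 without. What that difference contributes was not tested, and anything that goes with growth condition cannot be told apart from ABA. The count rested on single arrays. It was 1 without atmyc2 replicate 1 with ABA, 4 without atmyc2 replicate 2 with ABA, 21 without double-mutant replicate 1 with ABA and 7 without double-mutant replicate 2 with ABA. It was 29 without atmyc2 replicate 1 grown without ABA, 53 without atmyc2 replicate 2, 160 without double-mutant replicate 1 and 135 without double-mutant replicate 2.

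Among lower genes, THI2.2 differed by -3.95 ± 0.55 on the log2 scale (SE, adjusted p = 0.0058, or -1.47 with the pseudocount of 19.1). Without ABA it measured 155 and 226 in the double mutant and 177 and 185 in atmyc2. SBT4.12 showed the same pattern, with 142 and 83.3 in the double mutant and 139 and 99.5 in atmyc2 without ABA (difference -3.72 ± 0.58, or -1.43 with 19.1, adjusted p = 0.013). For both genes the lines overlapped without ABA and did not overlap with it.

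AMY1, an alpha-amylase, had the largest difference among the called genes with a symbol that are listed for this difference. Here it was the response without ABA that was large. Without ABA it measured 242 and 297 in the double mutant and 13.1 and 26.7 in atmyc2, a log2 fold change of 3.77. With ABA it measured 84.4 and 140.1 in the double mutant and 140.5 and 151 in atmyc2 (difference -4.19 ± 0.53, adjusted p = 0.0039). EXLA1, an expansin-like protein, had 525 and 974 in the double mutant and 174 and 149 in atmyc2 without ABA. With ABA it had 809 and 840 in the double mutant and 885 and 864 in atmyc2 (difference -2.23 ± 0.37, adjusted p = 0.016). The mitochondrial maturase gene matR had 135 and 177 in the double mutant and 38.4 and 58 in atmyc2 without ABA. With ABA it had 310 and 306 in the double mutant and 439 and 548 in atmyc2 (difference -2.36 ± 0.46, adjusted p = 0.033). These 3 genes were higher in the double mutant without ABA and were not called with it.

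On the other side only 4 named genes passed. LCR69, of the family of small cysteine-rich defensin-like proteins, had 707 and 873 in the double mutant and 1943 and 1844 in atmyc2 without ABA. With ABA it had 2323 and 2338 in the double mutant and 1666 and 1834 in atmyc2 (difference 1.68 ± 0.23, adjusted p = 0.005). EXPA15, an expansin, was lower without ABA (42.6 and 26.1 in the double mutant, 76.8 and 89.5 in atmyc2) and not called with it (26.3 and 31.7 in the double mutant, 22.9 and 22 in atmyc2), a difference of 1.64 ± 0.34 (adjusted p = 0.035). The other two, ZW9 and FBL17, an F-box protein that acts in the cell cycle, had differences of 1.84 ± 0.40 (adjusted p = 0.041) and 1.07 ± 0.24 (adjusted p = 0.044).

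**Figure D5:**
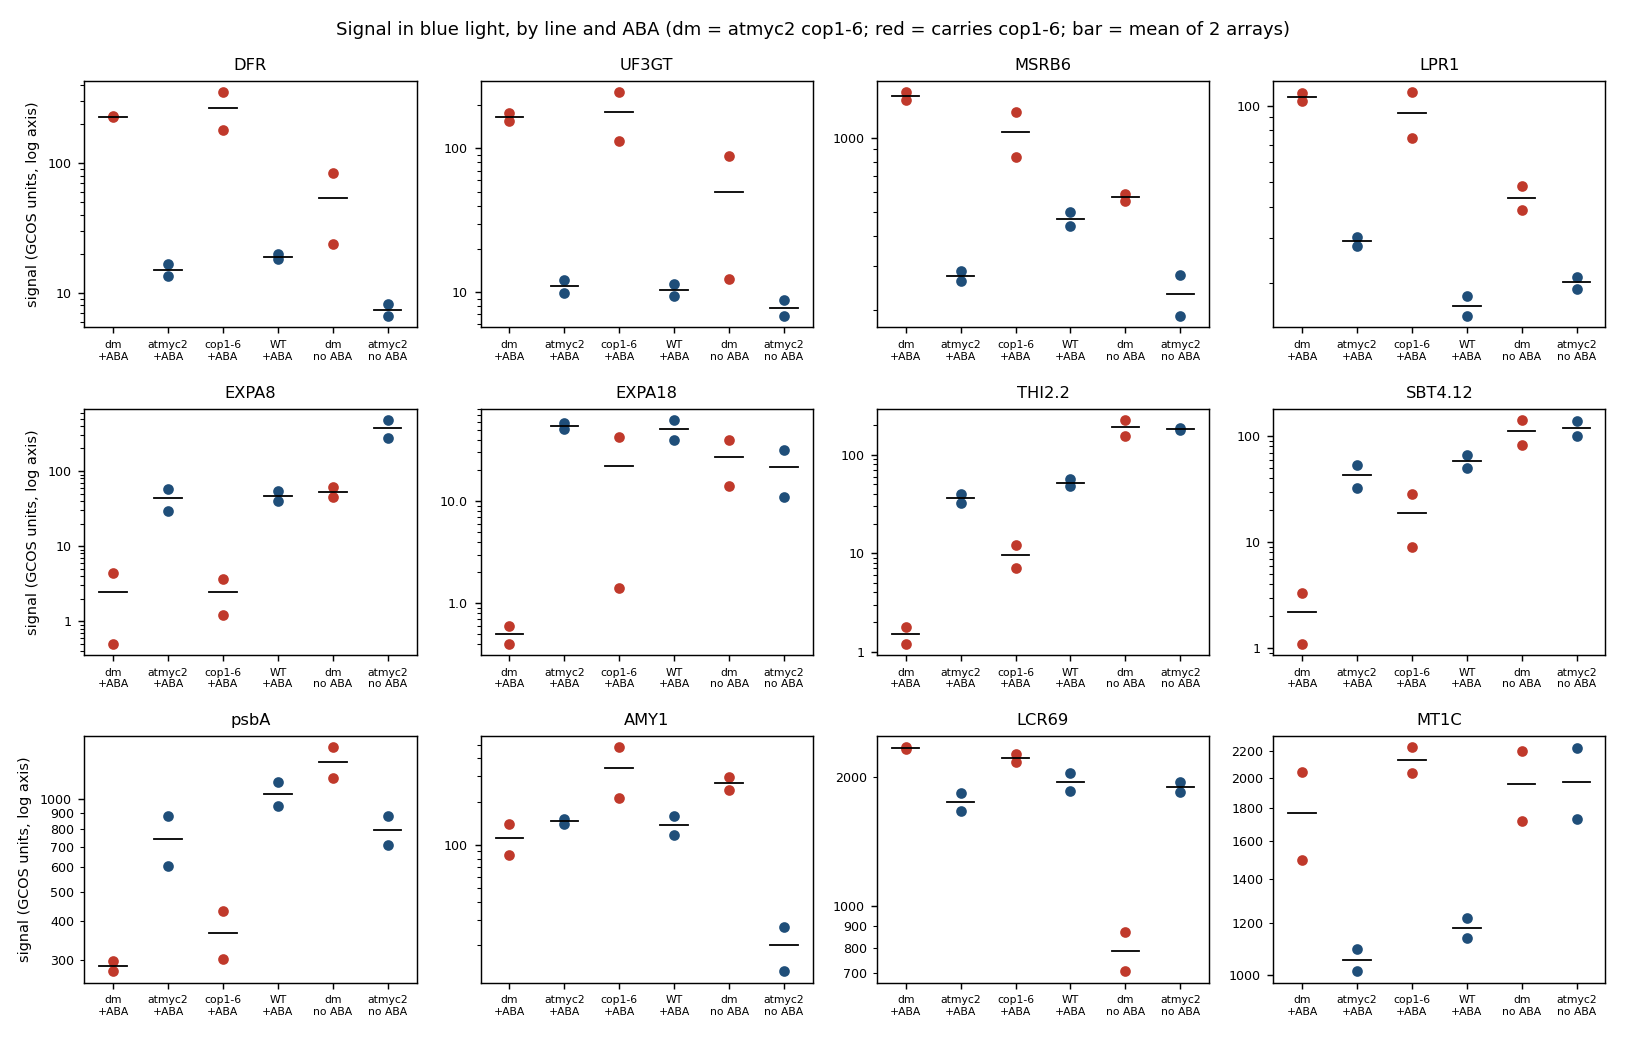
Signal of 12 genes (vertical log axes) in 6 groups of 2 arrays in blue light, with and without ABA; points are arrays, bars are means, red marks lines with cop1-6 and dm is the double mutant. DFR, UF3GT, MSRB6 and LPR1 are higher in red than in the blue group to their right at every pair, while THI2.2 and SBT4.12 are lower in the double mutant with ABA and overlap atmyc2 without it.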

How the data were processed

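The values are signal intensities as the authors deposited them, with a single number for a probe set on an array; the submitters' processing notes name GCOS 1.4. Further settings are not given in the sources used here. Trimmed means, leaving out the lowest and highest 2%, were 100.0 on every array, so the intensities were used as deposited, as log2(signal + 1). Single arrays carry no depth; precision is limited by 2 arrays a group.

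A mean above 19.1 (40th percentile) in at least 1 group was required. limma 3.58.1 in R 4.3.3 fitted the means of all 12 groups (24 arrays) with empirical Bayes moderation (trend and robust), giving the comparison and 2 differences of fold changes. Adjusted p-values follow Benjamini and Hochberg over 16196 probe sets, and the threshold was 0.05. The fit was run on data simulated with normal noise of the spread that the fit itself had estimated. It called 37% of 100 probe sets with a log2 change of 1 and 86% of 100 with a change of 2. Many changes of a doubling would thus not be called.

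Of 22746 probe sets other than 64 controls, the supplied platform annotation gave 13513 a single gene, and 13436 of these matched a RefSeq gene table, used for names only. Of 1255 tested with a symbol, 57 were called. Genes named were the 15 highest and 15 lowest called genes with a symbol by fold change at the pseudocount of 19.1 with no overlap between lines, the 2 highest and 2 lowest called loci, called members of each list (up to 4), and the 5 highest and lowest called genes of each difference. Others are named as list or family members or after their values were seen. Members, lists and tests were chosen with earlier results of these data known. Alternatives were the pseudocount, the filter, quantile normalization, moderation, the arrays fitted, a replicate block and leaving out each array. No promoter sequences were used here.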

Additional observations from a re-analysis of the deposited data

Results flagged for a closer look

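The effect of cop1-6 in plants without AtMYC2 was called different between growth with and without ABA at the 9 named genes given here. The test was of that difference (fold change with ABA minus without, log2), in the fit to all arrays. As given above, the full count of such calls rested on single arrays. At most 5 called genes on each side of 0 were listed, so 9 is not the full number. Other genes were called below 0, among them 1 with a BGLU symbol and 1 with a WRKY symbol. Of the 9, those below 0 were AMY1 (-4.19), THI2.2 (-3.95), SBT4.12 (-3.72), matR (-2.36) and EXLA1 (-2.23). Above 0 were ZW9 (1.84), LCR69 (1.68), EXPA15 (1.64) and FBL17 (1.07). ABA and anything that went with growth condition cannot be told apart in this design.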

How the results depend on the processing

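For the double mutant against atmyc2 with ABA, the 767 calls became 4014 with the 4 compared arrays alone and 1355 without the cop1-6 arrays with ABA (added after the data were seen). They ran from 104 to 346 with 1 of the 4 arrays left out, where the lone array of a group is assumed to vary like the other groups. The other settings (pseudocount, filter, quantile normalization, plain moderation) gave 611 to 800. The difference from the effect with AtMYC2 gave 0 calls, and from 0 to 340 with 1 array left out (340 without cop1-6 replicate 1, 1 without either double-mutant array). The difference with and without ABA gave 115 calls. This became 204 with the pseudocount of 19.1, 229 with quantile normalization, 42 with plain moderation, 415 with the 8 compared arrays alone, 640 without the cop1-6 arrays with ABA, and 1 to 160 with 1 array left out. Replicate numbers are shared between groups, and deviations of same-numbered arrays of the double mutant and atmyc2 correlated at -0.02 with ABA and 0.19 without it. The labels name nothing shared by a number, and the samples were not treated as paired. With a replicate block the calls were 776, 0 and 102. No called gene named here changed its sign under any of these settings. Of the 57 called genes with a symbol, 9 kept their calls with any 1 array left out and 29 lost them with every one. Calls also ended for HRGP1, GH9B8, SPCH, SWEET17 and bZIP44 with the pseudocount of 19.1, for CHIL, AT5MAT, UGT76E12 and ChiC with none, for HRGP1, CYTC-2, ChiC and UGT76C2 without the filter, for HRGP1, CSLA03 and UGT76C2 with quantile normalization, for SPCH with the 4 arrays alone and for HRGP1 with the block. Plain moderation ended GH9B8, HRGP1, SWEET17, psbA, AKINBETA1, bZIP44, scpl25, YKT61, CYTC-2, MT1C, GTR1, SDH2-1, ALDH2C4 and ChiC. Fold changes of genes with signals under 19.1 depend on the pseudocount. The cause of these shifts was not tested.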
